A study of Mus musculus with 4 samples.

Results

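MMERGLN and RLTR1 are names that repeat annotation gives to mouse endogenous retroviral sequences, and every transposable element (TE) copy whose repeat name begins with MMERGLN, or with RLTR1 not followed by another digit, was taken. This gave 4813 copies of 3658072 in the deposited table, under 11 repeat names of 1072. MMERGLN names accounted for 1291 of these copies and RLTR1 names for 3522. The rule used the spelling of the name and no expression value, but it was chosen with earlier results of these data known.

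Murine retrovirus-like elements of the GLN group are named for the glutamine tRNA that primes their reverse transcription, and they are related to the gammaretroviruses. A complete element holds an internal part, which carries the retroviral genes and has a name ending in "int", between a pair of long terminal repeats (LTRs), which carry the promoter and the polyadenylation signal. Many copies are reduced to a solitary LTR, and in ESCs retroviral elements are commonly silenced by KRAB zinc finger proteins that recruit Trim28 and the H3K9 methyltransferase Setdb1.

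The study asked how loss of *Terc*, the gene of the telomerase RNA, alters mouse ESCs with shortened telomeres. RNA-seq was performed on poly(A)-enriched RNA of ESCs in the C57BL/6 strain, cultured on feeder cells with serum and LIF. WT ESCs (line N12, labelled generation 3) were compared with G3 *Terc*-/- ESCs (line F35), the third generation without *Terc*, derived by intercrossing *Terc*-/- mice of the generation before, with 2 libraries per genotype. Each genotype was represented by 1 line, so that genotype and line cannot be told apart, and *P* values measure only the spread between libraries of a line.

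TE counts totalled 2058932 and 2104586 for WT ESCs and 2065466 and 1805047 for G3 *Terc*-/- ESCs. Gene counts were 22057607 and 22520017 in WT ESCs and 21898081 and 18047995 in G3 *Terc*-/- ESCs. *Terc* itself, on chromosome 3 at 96414437 to 96414833 (GRCm38), had 7 and 2 counts in WT ESCs and 0 and 0 in G3 *Terc*-/- ESCs, a 0 being compatible with as many as 3 counts. The gene was thus detected in both WT libraries and in neither of the others, although at a depth too low for a fold change.

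Of the 4813 copies, 880 had at least 1 count in any library, which is 18.3% against 14.6% of all TE copies. A further restriction to at least 5 counts over the 4 libraries left 321 copies for testing, and 559 copies had fewer. The number of copies detected was 472 and 492 in WT ESCs and 481 and 449 in G3 *Terc*-/- ESCs. It was lower in both *Terc*-/- libraries for the MMERGLN names (171 and 175 against 143 and 131) and not for the RLTR1 names (301 and 317 against 338 and 318). Over all TE copies, 279715 and 273962 were detected in WT ESCs and 286927 and 267569 in G3 *Terc*-/- ESCs, with overlapping genotypes. The second *Terc*-/- library had the fewest TE counts. Levels below are counts per 1000000 TE counts (CPM), not divided by length, so that they are compared between genotypes and not between names.

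Transcripts of these elements were less abundant in G3 *Terc*-/- ESCs. All copies together took 1.73% and 1.70% of the TE counts of WT ESCs and 0.503% and 0.530% of those of G3 *Terc*-/- ESCs. The MMERGLN names summed to 13405 and 13083 CPM in WT ESCs and to 3869 and 4149 CPM in G3 *Terc*-/- ESCs, a log2 ratio of −1.72. The RLTR1 names summed to 3882 and 3873 CPM in WT ESCs and to 1159 and 1151 CPM in G3 *Terc*-/- ESCs, a log2 ratio of −1.75. In both sums the genotypes were far apart relative to the gap between libraries of a genotype. The exact permutation test (two-sided) gave *P* = 0.333 for each sum, the smallest value that 2 libraries against 2 can give. With the top copy of each name left out, the log2 ratio was −0.080 for the MMERGLN names and −1.64 for the RLTR1 names. In bulk RNA, fewer cells that transcribe an element and less RNA per cell cannot be told apart.

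The 11 names did not move together. Of the 10 names with enough counts to be fitted, 3 fell and 1 rose at a fold change of 1.5 and an unadjusted *P* under 0.05, where 2.94% of the 917 repeat names tested fell and 5.13% rose. The names that fell were the internal parts MMERGLN-int and RLTR1B-int and the LTR of the former, MMERGLN_LTR. None of the LTR names of the RLTR1 group fell past these cutoffs.

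MMERGLN-int, the internal part of the GLN elements, had 26100 and 25993 counts in WT ESCs and 7491 and 6971 in G3 *Terc*-/- ESCs. Its level was 12514 ± 230 CPM (SD, n = 2) in WT ESCs and 3744 ± 166 CPM in G3 *Terc*-/- ESCs. This was a log2 fold change of −1.79 (SE 0.035) with an adjusted *P* of 6.3e-11 in edgeR's quasi-likelihood test and Benjamini-Hochberg adjustment over all repeat names. Both WT libraries stood well above both *Terc*-/- libraries.

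A single copy, MMERGLN-int copy 224, carried that fall. It had 23966 and 23781 counts in WT ESCs and 5325 and 5053 in G3 *Terc*-/- ESCs, and by total counts it ranked 2 among all 3658072 TE copies. Its share of all TE counts was 1.16% and 1.13% in WT ESCs and 0.258% and 0.280% in G3 *Terc*-/- ESCs. The copy had a log2 fold change of −2.10 (SE 0.069; edgeR's quasi-likelihood test and Benjamini-Hochberg adjustment over all copies, adjusted *P* = 3.16e-35), with low counts in both *Terc*-/- libraries. Within MMERGLN-int, the copy made up 91.8% and 91.5% of the counts of WT ESCs and 71.1% and 72.5% of those of G3 *Terc*-/- ESCs. It also made up 95.1% of the difference between genotypes in the summed level of the MMERGLN names.

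The rest of MMERGLN-int showed no such difference. Without copy 224, its level was 1036 and 1051 CPM in WT ESCs and 1049 and 1063 CPM in G3 *Terc*-/- ESCs, and the genotypes overlapped. The remaining counts were again concentrated. Copy 54 had 1230 and 1268 counts in WT ESCs and 1321 and 1178 in G3 *Terc*-/- ESCs (log2 fold change 0.10, SE 0.087), copy 82 had 297 and 362 against 317 and 266 (−0.074, SE 0.12), and copy 55 had 58 and 68 against 68 and 62 (0.15, SE 0.21). None of these 3 copies passed the cutoffs. In CPM, the libraries of the genotypes overlapped for copy 82, whereas copies 54 (597 and 602 against 640 and 653) and 55 (28.2 and 32.3 against 32.9 and 34.3) were slightly higher in both *Terc*-/- libraries.

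The size of the difference in the remaining MMERGLN-int copies depended on which of them were counted. With the 2 most abundant copies left out of every repeat name, an alternative chosen after seeing the data, MMERGLN-int had 904 and 944 counts in WT ESCs and 845 and 740 in G3 *Terc*-/- ESCs, a log2 fold change of −0.18. With 4 left out, also chosen after seeing the data, it had 549 and 514 against 460 and 412 counts (−0.23, SE 0.083). The fifth copy by counts, 623, rose and is described below. With 5 left out the name had 538 and 502 against 392 and 362 counts, a log2 fold change of −0.42 (SE 0.081), which is under the 1.5-fold cutoff although the adjusted *P* of edgeR's quasi-likelihood test and Benjamini-Hochberg adjustment was 0.000295.

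Among the 90 MMERGLN-int copies tested, 7 were higher and 10 lower in G3 *Terc*-/- ESCs by the cutoffs for copies, a fold change of 2 and an unadjusted *P* under 0.05, against 4.7% higher and 3.87% lower among all 176114 copies tested. With the adjusted *P* in place of the unadjusted, 2 were higher and 2 lower, where 0.634% of all copies were higher and 0.366% lower. The median log2 fold change of the 90 copies was −0.34, or −0.28 with copies at 0 in a genotype set to the bound given by 3 counts per library, and the median over all copies tested was 0.023 (0 with the bound). Since a copy can reach 5 counts through its higher genotype alone, these counts describe the copies detected and not all 856.

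The copies that moved went both ways. Copy 623 rose from 11 and 12 counts in WT ESCs to 68 and 50 in G3 *Terc*-/- ESCs, a log2 fold change of 2.45 (SE 0.32) and an adjusted *P* of 1.38e-07 in edgeR's quasi-likelihood test and Benjamini-Hochberg adjustment. Copy 649 had 8 and 7 counts in WT ESCs and 24 and 22 in G3 *Terc*-/- ESCs (1.70, SE 0.47). Copy 616 fell from 62 and 47 counts to 9 and 11, a log2 fold change of −2.33 (SE 0.35) and an adjusted *P* of 3.22e-06 by the same edgeR test. For each of these 3 copies, the libraries of the genotypes did not overlap.

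Other named MMERGLN-int copies had few counts and did not pass the adjusted cutoff. Copies 295 and 297 had the same counts in every library, 12 and 9 in WT ESCs and 1 and 1 in G3 *Terc*-/- ESCs, and copy 302 had 20 and 15 against 5 and 3. Copy 686 had 0 and 0 counts in WT ESCs and 8 and 2 in G3 *Terc*-/- ESCs, copy 176 had 1 and 0 against 4 and 6, and copy 186 had 1 and 0 against 7 and 2. The call of copy 302 was lost without *Terc*-/- replicate 2 (log2 fold change −1.76), and those of copies 176 and 186 in DESeq2 (3.44 and 3.23), without WT replicate 2 (2.28 and 2.11) and without *Terc*-/- replicate 1 (3.47 and 1.94) or 2 (2.74 and 3.53). Copy 686 was not called without either *Terc*-/- library. Uniquely mapped reads are described for single copies, but whether a read could be counted for both copies 295 and 297 is not given in the sources used here.

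MMERGLN_LTR, the terminal repeat that holds the promoter of these elements, had 1499 and 1542 counts in WT ESCs and 501 and 519 in G3 *Terc*-/- ESCs. The level was 730 ± 3.28 CPM (SD, n = 2) in WT ESCs and 265 ± 31.8 CPM in G3 *Terc*-/- ESCs, with a log2 fold change of −1.52 (SE 0.078; edgeR's quasi-likelihood test and Benjamini-Hochberg adjustment, adjusted *P* = 2.91e-07). Both WT libraries were above both *Terc*-/- libraries. Here the counts lay on a pair of copies with consecutive numbers, 207 and 208, which together held 87.9% of the WT counts of the name and 65.5% of the *Terc*-/- counts.

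Copy 208 had 1122 and 1103 counts in WT ESCs and 284 and 286 in G3 *Terc*-/- ESCs (log2 fold change −1.86, SE 0.10). Copy 207 had 214 and 233 counts in WT ESCs and 49 and 49 in G3 *Terc*-/- ESCs (−2.08, SE 0.17). Both LTR copies were high in WT and low in *Terc*-/- libraries, as was the internal copy 224. Set against the counts of that internal copy, copy 208 had 4.68% and 4.64% of them in WT ESCs and 5.33% and 5.66% in G3 *Terc*-/- ESCs, and copy 207 had 0.893% and 0.980% against 0.920% and 0.970%. Whether these LTRs flank the internal copy was not tested, since copies carry a number and no position in the counts used here.

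With copies 207 and 208 left out, MMERGLN_LTR had 163 and 206 counts in WT ESCs and 168 and 184 in G3 *Terc*-/- ESCs, a log2 fold change of −0.025 (SE 0.14), and the genotypes overlapped. The next copy, 280, had 59 and 71 counts in WT ESCs and 75 and 98 in G3 *Terc*-/- ESCs (0.52, SE 0.20), and copy 50 had 15 and 23 against 25 and 12 (0.058, SE 0.40). Copy 433 rose from 4 and 6 counts to 19 and 22, a log2 fold change of 2.12 (SE 0.53) with an adjusted *P* of 0.0188 in edgeR's quasi-likelihood test and Benjamini-Hochberg adjustment. Of the 18 MMERGLN_LTR copies tested, 1 was higher and 2 were lower, against 4.7% and 3.87% of all copies. With 5 copies left out, which removes copies 280, 50 and 433 as well, the name had 85 and 106 counts in WT ESCs and 49 and 52 in G3 *Terc*-/- ESCs, a log2 fold change of −0.87 (SE 0.20). It was −0.82 with 1 and −0.44 with 4 left out, and its size thus depended on which few copies were counted.

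RLTR1B-int, the internal part filed under the RLTR1 names, had 7038 and 7071 counts in WT ESCs and 1280 and 1164 in G3 *Terc*-/- ESCs. The level was 3389 ± 41.3 CPM (SD, n = 2) in WT ESCs and 632 ± 17.8 CPM in G3 *Terc*-/- ESCs. A log2 fold change of −2.47 (SE 0.040; edgeR's quasi-likelihood test and Benjamini-Hochberg adjustment, adjusted *P* = 1.99e-11) made it the most strongly lower of the 10 names fitted, and libraries of the genotypes did not overlap. It made up 88.1% and 86.8% of the counts of the RLTR1 names in WT ESCs and 53.5% and 56.0% in G3 *Terc*-/- ESCs.

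The fall of RLTR1B-int lay on more numbered copies than that of MMERGLN-int, though on few of its 798, as given below. The most abundant, copy 495, held 27.6% of the WT counts of the name. Without it the name had 5082 and 5130 counts in WT ESCs and 1062 and 962 in G3 *Terc*-/- ESCs, a log2 fold change of −2.30 (SE 0.039). With 2 copies left out the log2 fold change was −1.77 (SE 0.045) and with 5 left out −1.16 (SE 0.053), at 1927 and 1895 against 876 and 784 counts. Under each of these the WT libraries stood above the *Terc*-/- libraries. In all, 19 copies were needed to reach 90% of the counts of RLTR1B-int, against 2 for MMERGLN-int and 4 for MMERGLN_LTR.

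Copy 495 had 1956 and 1941 counts in WT ESCs and 218 and 202 in G3 *Terc*-/- ESCs (log2 fold change −3.11, SE 0.10). Copy 556 had 1853 and 1873 against 80 and 90 (−4.35, SE 0.12). Copies 495 and 556 were each low in both *Terc*-/- libraries, with adjusted *P* values of 2.22e-35 and 3.58e-40 in edgeR's quasi-likelihood test and Benjamini-Hochberg adjustment. Copy 555 had 589 and 593 against 55 and 40 counts (−3.53, SE 0.15), copy 554 had 386 and 376 against 37 and 28 (−3.44, SE 0.17), and copy 557 had 327 and 393 against 14 and 20 (−4.29, SE 0.20). In all 5 copies every WT library was above every *Terc*-/- library.

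Of the 84 RLTR1B-int copies tested, 27 were lower and 6 higher at the cutoffs used for copies, against 3.87% lower and 4.7% higher among all copies tested. With the adjusted *P*, 19 were lower and 3 higher, against 0.366% and 0.634% of all copies. The median log2 fold change of the 84 copies was −0.44, with and without the bound for copies at 0. Of the 27 lower copies, 18 had a copy of the next or the previous number that was also lower, which is 66.7%, whereas this held for 9.45% of the 6815 lower copies of the whole series. Among the 10 lower copies of MMERGLN-int there was none with such a neighbour. Of the higher copies, 3 of 6 in RLTR1B-int and 2 of 7 in MMERGLN-int had a higher neighbour, against 13.3% in the whole series. These shares were not corrected for the share of copies called, which was 32.1% for the lower copies of RLTR1B-int. Numbers run within each repeat name. Whether consecutive numbers mark neighbours in the genome, or pieces of a single element, is not given in the sources used here. The counts of copies thus need not be counts of separate elements.

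The 18 copies fell into 4 runs of consecutive numbers, described here after their values were seen and without a test. Copies 554 to 558 summed to 3384 and 3469 counts in WT ESCs and 201 and 189 in G3 *Terc*-/- ESCs, with log2 fold changes from −4.35 to −3.44. Copies 494 to 497 summed to 2312 and 2287 against 255 and 251 counts, with log2 fold changes from −3.11 to −2.85. In both runs every WT sum was above every *Terc*-/- sum.

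Copies 656 to 660 summed to 525 and 551 counts in WT ESCs and 134 and 119 in G3 *Terc*-/- ESCs, with log2 fold changes from −2.25 to −1.88. Copies 27 to 30 summed to 223 and 184 against 55 and 23 counts, with log2 fold changes from −2.42 to −1.52. Together the 4 runs held 91.7% of the WT counts of RLTR1B-int and 50.2% of its *Terc*-/- counts. The other 780 copies of the name summed to 288 and 276 CPM in WT ESCs and 307 and 322 CPM in G3 *Terc*-/- ESCs, the *Terc*-/- libraries being slightly the higher, a direction that the choice of the runs favours.

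A further run moved the other way. Copies 577 to 579 summed to 51 and 63 counts in WT ESCs and 149 and 134 in G3 *Terc*-/- ESCs. Of these, copy 579 had 26 and 32 against 86 and 69 counts (log2 fold change 1.52, SE 0.24) and copy 577 had 12 and 16 against 35 and 39. Copy 221 had 3 and 3 counts in WT ESCs and 12 and 18 in G3 *Terc*-/- ESCs. Copies 577, 579 and 221 passed the adjusted cutoff, with adjusted *P* values of 0.00996, 1.78e-05 and 0.0421 in edgeR's quasi-likelihood test and Benjamini-Hochberg adjustment. Copies 134 and 261 were listed at 0 in both WT libraries and had 4 and 7 and 6 and 4 counts in the *Terc*-/- libraries, and their calls were lost without either *Terc*-/- library.

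Consecutive copies did not always move alike. Copy 336 had 70 and 70 counts in WT ESCs and 34 and 20 in G3 *Terc*-/- ESCs, a log2 fold change of −1.27 (SE 0.26), whereas copy 337 had 66 and 61 against 118 and 114, a log2 fold change of 0.97 (SE 0.19) just under the 2-fold cutoff. These copies were picked after their values were seen.

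The remaining RLTR1 names are LTRs, and their summed level was similar in the genotypes. These 8 names summed to 463 and 513 CPM in WT ESCs and 539 and 506 CPM in G3 *Terc*-/- ESCs, a log2 ratio of 0.098, with overlapping libraries and *P* = 0.667 in the two-sided exact permutation test. RLTR1A2_MM, the most abundant, had 447 and 473 counts in WT ESCs and 501 and 425 in G3 *Terc*-/- ESCs (log2 fold change 0.063, SE 0.080). Its copy 44, with 180 and 204 against 197 and 185 counts, held 41.7% of the WT counts and 41.3% of the *Terc*-/- counts of the name, and did not differ beyond the libraries' spread (0.098, SE 0.14).

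RLTR1B, the LTR whose name matches RLTR1B-int, had 212 and 248 counts in WT ESCs and 226 and 172 in G3 *Terc*-/- ESCs, with overlapping libraries and a log2 fold change of −0.16 (SE 0.12). Its most abundant copy, 558, had the smallest *P* of the name and was picked after its values were seen, with 30 and 43 counts in WT ESCs and 1 and 2 in G3 *Terc*-/- ESCs (−4.39, SE 0.59). Of the 45 RLTR1B copies tested, 3 were higher and 6 lower, which is 6.67% and 13.3% against 4.7% and 3.87% of all copies, and copy 558 was the only one to pass the adjusted cutoff. The LTR name thus did not share the size of the change of the internal name.

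RLTR1C had 112 and 115 counts in WT ESCs and 97 and 78 in G3 *Terc*-/- ESCs (log2 fold change −0.32, SE 0.15). RLTR1D had 82 and 101 counts against 101 and 101 (0.20, SE 0.16), and RLTR1E_MM had 17 and 37 against 32 and 18 (−0.060, SE 0.40, or 0.0070 with scaling by the gene counts). Without each library in turn, RLTR1E_MM ranged from −0.50 to 0.59. None of these 3 names passed the cutoffs. RLTR1D2_MM had 60 and 70 counts in WT ESCs and 103 and 78 in G3 *Terc*-/- ESCs, a log2 fold change of 0.53 (SE 0.17), under the 1.5-fold cutoff and with an adjusted *P* of 0.051 in edgeR's quasi-likelihood test and Benjamini-Hochberg adjustment. Both *Terc*-/- libraries were above both WT libraries for this name. It passed the unadjusted cutoffs with scaling by the gene counts (0.60), without WT replicate 2 (0.63) and without *Terc*-/- replicate 2 (0.62), and also with its 4 (0.66) or 5 (0.87) most abundant copies left out. It was not under an unadjusted *P* of 0.05 in DESeq2 (0.53), without WT replicate 1 (0.44) or without *Terc*-/- replicate 1 (0.43).

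RLTR1F_Mm was the name that rose, with 22 and 36 counts in WT ESCs and 49 and 41 in G3 *Terc*-/- ESCs, a log2 fold change of 0.69 (SE 0.28). Its adjusted *P* was 0.102 in edgeR's quasi-likelihood test and Benjamini-Hochberg adjustment, so that only the unadjusted cutoff was passed. DESeq2, at a log2 fold change of 0.69, did not call the name. The call was also lost without WT replicate 1 (0.39), without *Terc*-/- replicate 1 (0.66) and without *Terc*-/- replicate 2 (0.71). Copy 31 held 77.6% of its WT counts and 84.4% of its *Terc*-/- counts, and without that copy the name had 3 and 10 against 10 and 4 counts. RLTR1, the name without a suffix, had 2 and 0 counts in WT ESCs and 4 and 1 in G3 *Terc*-/- ESCs over its 62 copies and could not be fitted.

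Over all 321 copies tested, 23 were higher and 48 lower in G3 *Terc*-/- ESCs, which is 7.17% higher and 15.0% lower, against 4.7% and 3.87% of all copies. With the adjusted *P*, 6 were higher and 24 lower, against 0.634% and 0.366% of all copies. RLTR1B-int supplied 19 of these 24 lower copies, and 27 of the 48. With DESeq2 in place of edgeR, 10 copies were higher and 33 lower. The higher copies were 11 without *Terc*-/- replicate 1 and 12 without *Terc*-/- replicate 2. There were 12 copies at 0 in both WT libraries and 7 at 0 in both *Terc*-/- libraries, with at most 16 counts in total. Among all 176114 copies tested, 4419 were at 0 in both WT libraries and 4538 in both *Terc*-/- libraries. The chi-square of the counts per copy between libraries of a genotype is near 1 under counting noise alone. It was 1.31 over the 309 of these copies with a count in a WT library. Between the *Terc*-/- libraries it was 1.22, over 314 copies. Among all copies tested it was 1.40 and 1.36, over 171695 and 171576 copies. Taken over many copies, it does not describe the spread of the most abundant. MMERGLN-int copy 224 was at 11640 and 11300 CPM in WT ESCs and at 2578 and 2799 CPM in G3 *Terc*-/- ESCs.

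Other retroviral names that resemble murine leukemia virus are given side by side. MuLV-int, the internal part of murine leukemia virus-like elements, had 2033 and 2001 counts in WT ESCs and 3111 and 2574 in G3 *Terc*-/- ESCs (log2 fold change 0.55, SE 0.044). MMVL30-int, the internal part of VL30 elements, had 1750 and 1487 against 1782 and 1379 counts (0.015, SE 0.084), RLTR4_MM-int had 396 and 371 against 575 and 502 (0.54, SE 0.084), and RLTR6-int had 906 and 880 against 1042 and 934 (0.20, SE 0.061). Of the MuRRS internal names, MuRRS-int had 87 and 75 against 165 and 121 counts (0.87, SE 0.16), and MuRRS4-int had 518 and 577 against 489 and 452 (−0.16, SE 0.084). Among these 6 internal names, MuRRS4-int alone had a negative log2 fold change, and at the cutoffs for names in edgeR MuRRS-int was higher and none was lower. Of all repeat names, 5.13% were higher and 2.94% lower. Among related names not ending in "int", RLTR6B_Mm was also higher at these cutoffs (0.83, SE 0.15). RLTR4_Mm (0.47), RLTR6C_Mm (0.14) and RLTR6_Mm (−0.15) did not pass them. The log2 ratio of MMERGLN-int to MuLV-int was 3.68 and 3.70 in WT ESCs and 1.27 and 1.44 in G3 *Terc*-/- ESCs, and that of RLTR1B-int to MuLV-int was 1.79 and 1.82 against −1.28 and −1.14. With either name set against each of MuLV-int, MMVL30-int, RLTR4_MM-int and RLTR6-int, 8 pairs in all, the ratio was lower in both *Terc*-/- libraries, by a log2 difference from −3.02 to −1.81, and the exact permutation test (two-sided) gave *P* = 0.333 for each pair before and after adjustment, the smallest possible.

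Genes that silence retroviral elements were examined beside them. All 50 genes of a list of KRAB zinc finger proteins, H3K9 and DNA methylation factors, histone chaperones and related silencers were tested, and none was higher and 2 were lower at a fold change of 2 and an unadjusted *P* under 0.05 in edgeR, with the same counts in DESeq2, where 4.73% of the 14896 genes tested were higher and 3.13% lower. At any size, 11 were higher and 18 lower at an unadjusted *P* under 0.05, and 11 higher and 17 lower by the adjusted *P*, where 21.7% of all genes were higher and 21.8% lower. In DESeq2, 10 were higher and 17 lower by the adjusted *P*, against 13.9% and 15.4% of all genes. The median log2 fold change of the list was −0.065, against 0.0062 over all genes.

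*Dnmt3b*, a de novo DNA methyltransferase (chromosome 2, 153649411 to 153687730), was at 509 and 515 CPM, here of the gene counts, in WT ESCs and at 234 and 244 in G3 *Terc*-/- ESCs, a log2 fold change of −1.13 (SE 0.049). *Cbx3*, which encodes the heterochromatin protein HP1γ (chromosome 6, 51470154 to 51483704), was at 154 and 165 against 65.2 and 73.0 (−1.24, SE 0.061). *Smarcad1*, a chromatin remodeller (chromosome 6, 65042591 to 65116061), was at 166 and 170 against 82.4 and 94.4 (−0.96, SE 0.059), just under the 2-fold cutoff. All 3 genes were lower in both *Terc*-/- libraries. *Trim28*, the corepressor that KRAB zinc finger proteins recruit, was at 1615 and 1608 against 2261 and 2128 (0.41, SE 0.047), *Setdb1* was at 181 and 186 against 183 and 187 (−0.027, SE 0.052), and *Zfp809*, the zinc finger protein that binds the primer binding site of murine leukemia virus, was at 23.5 and 24.6 against 26.0 and 25.6 (0.066, SE 0.085). Of the same list, *Zfp987* (0.67, SE 0.063), *Zfp984* (0.42, SE 0.064) and *Zfp932* (0.27, SE 0.079) were higher in both *Terc*-/- libraries. *Gm15446* was at 0.15 (SE 0.13), with overlapping libraries. Genes around *Cbx3* and *Smarcad1* on chromosome 6 were lower as well, a comparison chosen after seeing the data. The median log2 fold change was −0.87 over the 66 other genes tested within 5 Mb of *Cbx3* (62 negative) and −1.50 over the 10 within 5 Mb of *Smarcad1* (10 negative). The part of gene copy number in these values was not tested, nor whether any retroviral copy lies in such a stretch, nor whether any of these genes bears on the copies above.

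Of 27 genes that restrict retroviruses or sense their nucleic acids, 24 were tested, and 1 was higher and none lower at the same cutoffs in edgeR and in DESeq2. By the adjusted *P* of edgeR at any size, 10 were higher and 5 lower, the same counts as at an unadjusted *P* under 0.05, against 21.7% and 21.8% of all genes by the adjusted *P*, and the median log2 fold change was 0.13. By the adjusted *P* of DESeq2, 6 were higher and 3 lower, against 13.9% and 15.4% of all genes. *Zc3hav1*, the antiviral zinc finger protein ZAP that binds viral RNA (chromosome 6, 38305286 to 38355352), was at 29.4 and 29.5 CPM of the gene counts in WT ESCs and 82.2 and 80.8 in G3 *Terc*-/- ESCs (1.43, SE 0.070). *Serinc3*, which limits the infectivity of retroviral particles, was at 129 and 134 against 236 and 233 (0.80, SE 0.052), and *Bst2*, which tethers budding virions to the cell, was at 61.9 and 59.0 against 34.9 and 34.5 (−0.84, SE 0.071). *Zc3hav1* and *Serinc3* were higher and *Bst2* was lower in both *Terc*-/- libraries. The 59 other genes tested within 5 Mb of *Zc3hav1*, also on chromosome 6, had a median log2 fold change of 0.044.

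Of 9 genes for transporters that serve as receptors of gammaretroviruses or are related to them, all were tested and none was past the cutoffs in edgeR or DESeq2. By edgeR at any size, 4 were higher and 2 lower, with the adjusted or the unadjusted *P*, against 21.7% and 21.8% of all genes by the adjusted *P*, and the median log2 fold change was 0.019. By the adjusted *P* of DESeq2, 3 were higher and 2 lower, against 13.9% and 15.4% of all genes. *Slc35f2* was at 97.4 and 100 CPM of the gene counts in WT ESCs and 55.5 and 56.7 in G3 *Terc*-/- ESCs (−0.85, SE 0.063), *Slc19a2*, a thiamine transporter, was at 66.5 and 68.3 against 114 and 118 (0.75, SE 0.060), and *Slc20a1*, the phosphate transporter used by gibbon ape leukemia virus, was at 352 and 363 against 256 and 266 (−0.49, SE 0.050). The genotypes did not overlap for any of these 3 genes.

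Feeder cells could add RNA to the libraries, and markers of fibroblasts were therefore summed. All 18 markers were detected, none being at 0 in every library, and *Lum* was too low to be tested, with 8 and 7 counts in WT ESCs and 4 and 2 in G3 *Terc*-/- ESCs. The markers summed to 2062 and 1726 CPM of the gene counts in WT ESCs and 2881 and 2456 in G3 *Terc*-/- ESCs, and the fibronectin gene *Fn1*, with the most counts, was at 1126 and 992 against 1717 and 1522. Without *Fn1* the other 17 summed to 935 and 734 against 1164 and 933, with overlapping genotypes. Of the 17 tested, 1 was higher at a fold change of 2 and none lower in edgeR, and 0 were higher and 0 lower in DESeq2. The gene called was *Dcn*, with 20 and 8 counts in WT ESCs and 27 and 26 in G3 *Terc*-/- ESCs. In edgeR at any size, 9 were higher and 1 lower at an unadjusted *P* under 0.05, and 8 and 1 by the adjusted *P*, against 21.7% and 21.8% of all genes, with a median log2 fold change of 0.41. By the adjusted *P* of DESeq2, 3 were higher (*Vim*, *Fn1* and *Fbn1*) and 0 lower, against 13.9% and 15.4% of all genes. The markers with the smallest *P* in edgeR were *Vim*, at 164 and 133 against 326 and 280 CPM (1.00, SE 0.065), *Fn1* (0.58, SE 0.053) and the collagen gene *Col5a1*, at 36.0 and 25.7 against 54.3 and 39.7 CPM (0.58, SE 0.10), each higher in both *Terc*-/- libraries. Which of these genes the ESCs also express, and the part of feeder RNA in the levels of the retroviral copies, was not tested.

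Markers of pluripotent cells were all detected. The 12 genes summed to 6629 and 6708 CPM of the gene counts in WT ESCs and 8465 and 8808 in G3 *Terc*-/- ESCs, and *Tdgf1*, with the most counts over the 4 libraries, was at 1097 and 1111 against 1747 and 1833. *Dppa5a*, with the most counts in WT ESCs, was at 1313 and 1304 against 754 and 799 (−0.79, SE 0.047), and *Tfcp2l1* was at 363 and 372 against 642 and 667 (0.80, SE 0.048). *Nanog* was past the cutoffs (406 and 401 against 900 and 910, log2 fold change 1.13, SE 0.047), 10 of the 12 were higher and 2 lower by the adjusted *P* at any size, against 21.7% and 21.8% of all genes, and the median log2 fold change was 0.41. The 101 other genes tested within 5 Mb of *Nanog*, on chromosome 6 as well, had a median log2 fold change of 0.54 (94 positive). The part of the state of the cells that these markers mark in the differences of the retroviral copies was not tested.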

How the data were processed

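Trimming, alignment to mm10 and counting were done by the authors, whose submitters' processing notes name Trim Galore, STAR and featureCounts; strand and multi-mapping settings of the counting are not given in the sources used here, although uniquely mapped reads are described for single copies. The deposited values are raw counts per gene and per TE copy, without normalization. Copy counts were summed by repeat name. Fold changes came from edgeR 4.0.16 (TMM, quasi-likelihood test, genotype only) in R 4.3.3, on all repeat names and genes that passed filterByExpr and on all copies with at least 5 counts. DESeq2 1.42.0 served as the alternative, beside other scalings, filters, a replicate block and the omission of each library or of the most abundant copies. The fit was tested on simulated data, with changes seeded only in features of higher counts. Changes in copies with few counts were not covered. Each SE is the absolute log2 fold change divided by the square root of the F statistic of the quasi-likelihood test. It was thus derived from the same test as the *P*. Gene identifiers were matched to RefSeq GRCm38.p6 (24061 of 24116). Every repeat name was described. The copies named were the 5 with the most counts and up to 5 higher and 5 lower with the smallest *P* past the cutoffs, for MMERGLN-int, MMERGLN_LTR and the RLTR1 names together; RLTR1B-int copies 336 and 337, RLTR1B copy 558, RLTR1F_Mm copy 31 and the members of runs were added after their values were seen. The genes named were those past the cutoffs and up to 3 per list with the smallest *P*. *Trim28*, *Setdb1* and *Zfp809* and the most abundant markers were added for their role. *Zfp987*, *Zfp984*, *Zfp932* and *Gm15446* were added after their values were seen. The members and gene lists were chosen with earlier results of these data known.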

Additional observations from a re-analysis of the deposited data

How the results depend on the processing

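The falls of MMERGLN-int, MMERGLN_LTR and RLTR1B-int passed the cutoffs with DESeq2, with its size factors in edgeR, with scaling by the gene counts and without each library in turn, the lone library then being assumed to vary like the other genotype. Replicate numbers did not pair the libraries (correlation of deviations 0.062 over genes and −0.047 over repeat names), and with the replicate block 1 name rose and 3 fell, and 17 copies were higher and 44 lower. With the top copy left out of each name, the summed log2 ratio was −0.080 for the MMERGLN names and −1.64 for the RLTR1 names. With all copies kept and CPM of the gene counts, it was −1.67 for the MMERGLN names and −1.69 for the RLTR1 names. The number of names that rose was 0 with DESeq2 and with the adjusted *P*, and 2 with scaling by the gene counts. It was also 0 with the top copy or the 2 top copies left out. RLTR1F_Mm had no fitted value there, so that its rise could not be tested under these settings. With the 2 or the 4 top copies left out, 1 name fell. Higher copies numbered 10 with DESeq2, 11 with filterByExpr, 6 with the adjusted *P* (24 lower), and 11 to 18 without each library. Names that were not called changed sign, and the cause was not tested: RLTR1B was at 0.066 with the top copy left out, RLTR1C at 0.12 and 0.045 with 2 and 5 left out, RLTR1D at −0.083 and −0.16 with 2 and 4 left out, and RLTR1E_MM at 0.0070 with scaling by the gene counts and from −0.50 to 0.59 without each library. Without each library, MMERGLN-int copy 82 ranged from −0.20 to 0.065 and MMERGLN_LTR copy 50 from −0.47 to 0.42. Leaving out 2, 4 or 5 copies was chosen after seeing the data. The alternative without IAP names was not run, since no MMERGLN or RLTR1 name held IAP. Depth limits the copies near 5 counts, and copies have no positions here.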
